A study of Mus musculus with 8 samples.

Results

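The effect of MRK-003, a small-molecule inhibitor of gamma-secretase, was measured in mouse MC3T3-E1 osteoblasts grown together with tumour cells that overexpress the Notch ligand Jagged1. The comparison was chosen by sample title and used 4 of the 8 samples of the series, 2 Jagged1 MRK-003 co-cultures against 2 Jagged1 DMSO co-cultures. DMSO is the solvent of the inhibitor, and both groups hold the same Jagged1-overexpressing tumour cells. The other 4 samples were 2 vector MRK-003 and 2 vector DMSO co-cultures, in which the tumour cells carried an empty vector. The labels call each pair of arrays biological replicates, and all cultures were kept in the osteoblasts' own medium. MC3T3-E1 is an established preosteoblast line from mouse calvaria, so each group reports on 1 osteoblast line. The labels do not name the tumour line or its species, the dose and length of MRK-003 treatment, or any step that parted osteoblasts from tumour cells. Fewer cells of a type and less RNA per cell cannot be told apart in such bulk samples.

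Notch receptors are activated when a ligand such as Jagged1 on a neighbouring cell binds them. Gamma-secretase then cuts the receptor inside the membrane, and the freed intracellular domain enters the nucleus, joins the DNA-binding protein RBPJ and switches on genes such as those of the Hes and Hey families, which encode transcriptional repressors. In bone, Notch signalling is known to restrain osteoblast maturation, and osteoblasts also steer the formation of bone-resorbing osteoclasts through secreted factors. Gamma-secretase cuts many membrane proteins besides Notch receptors, so an inhibitor is not specific to Notch. The comparison asks which osteoblast transcripts depend on this protease when Jagged1 is supplied by tumour cells.

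Each RNA was labelled with Cy3 and hybridised with a Cy5-labelled mouse reference RNA on an Agilent mouse array, and a level is the log2 ratio of Cy3 over Cy5 after loess normalization. Slide 1 held replicate 1 of every group and slide 2 held replicate 2. The median Cy3 signal was 164.7 and 117.2 in Jagged1 MRK-003 co-cultures (replicates 1 and 2) and 183.8 and 94.32 in Jagged1 DMSO co-cultures. Cy3 was well above background for 86% and 77.98% of spots in Jagged1 MRK-003 and for 89.18% and 78.55% in Jagged1 DMSO co-cultures, so slide 2 was the dimmer slide in both groups. A few spots had extreme local background: the highest Cy3 background was 41 and 32900 in Jagged1 MRK-003 against 2414 and 21070 in Jagged1 DMSO co-cultures, with medians from 27 to 30.5. Backgrounds over 2 times the array median were set to the median, which touched 0 and 17 Cy3 spots in Jagged1 MRK-003 and 4 and 27 in Jagged1 DMSO co-cultures. All 15 osteoblast markers were well above background on all 4 arrays, but so were all 15 macrophage markers and 17 of 18 skeletal muscle markers, so detection alone does not test the cell label.

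MRK-003 changed the levels of 2246 of 23441 tested genes in the Jagged1 co-cultures, or 9.58% (limma with slide as a block, Benjamini-Hochberg adjusted p under 0.05). Of these, 1348 rose and 898 fell, which is 5.75% and 3.83% of all genes. At least a 2-fold change was found for 406 called genes, 202 higher and 204 lower with MRK-003. The 2 MRK-003 arrays did not overlap the 2 DMSO arrays for 96.7% of called genes and for 44.7% of all genes. The median log2 difference over all genes was 0.01. The count depended on which arrays were fitted. It was far lower without either Jagged1 MRK-003 replicate or without Jagged1 DMSO replicate 2, and higher without Jagged1 DMSO replicate 1. It was also lower without any single vector array, and 465 when only the 4 arrays of the comparison were fitted. It was 484 without the slide block (232 higher, 252 lower) and 510 without the cap on local background. Each gene was read on its brightest probe, and of 68 named genes that passed and had other probes, 39 had at least 1 whose difference was over 1.5 times smaller.

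Direct Notch targets were among the transcripts with the largest falls. Of 23 tested canonical targets, 9 fell, 1 rose and 13 did not pass, with a median of -0.12 (-0.04 on slide 1 and -0.32 on slide 2). The falls numbered 5 without the slide block and 4 without the background cap. Hey1, a repressor of the Hey family, had log2 ratios of -2.11 and -2.12 in Jagged1 MRK-003 co-cultures, against 3.29 and 3.05 in Jagged1 DMSO co-cultures. Both inhibitor arrays thus lay far below both solvent arrays, and Hey1 fell by 5.28 ± 0.16 (log2 difference ± SE, 2 arrays in each group), or 38.9-fold (adjusted p = 8.7e-05), with -5.40 on slide 1 and -5.17 on slide 2. Its probe lies on mm7 at chr3:8669867-8669926, on the minus strand; the files do not say in which part of the transcript.

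Hes1, the best known Hes repressor, had log2 ratios of 0.20 and 0.67 in Jagged1 MRK-003, against 2.20 and 2.27 in Jagged1 DMSO co-cultures. It fell by 1.80 ± 0.12 (adjusted p = 0.000553), with no overlap between the groups. Heyl, the third Hey-family repressor, had 0.00 and -0.09 in Jagged1 MRK-003 against 0.37 and 0.33 in Jagged1 DMSO co-cultures, and fell by 0.39 ± 0.08 (adjusted p = 0.0256). Heyl was also lower on its other probe (-0.54). Nrarp, a feedback inhibitor of Notch signalling, was not well above background on either Jagged1 MRK-003 array and was at least 1.68-fold lower there than in Jagged1 DMSO co-cultures (adjusted p = 0.0022). Such a bound sets the mean of the brighter group against the lowest signal that was well above background, and is open to dye bias. Smaller falls were found for Hes6 (0.62), and for Snai1 (0.67) and Snai2 (0.84), which encode zinc-finger repressors of cell adhesion genes. Ccnd1, which encodes cyclin D1 and is listed as a Notch target in other tissues, rose by 0.76 ± 0.10 (adjusted p = 0.00546). The other Hes genes measured, Hes2, Hes3, Hes5 and Hes7, had differences between -0.07 and 0.01 that did not pass. The largest differences among the targets that did not pass were 0.76 for Efnb2, 0.37 for Myc and -0.35 for Gata3. Hey1, Hes1, Notch1, Notch3 and Nrarp kept their calls when any single array was left out. Notch1 was not called without the slide block, nor Nrarp without the background cap. Heyl lost its call without any single Jagged1 or vector MRK-003 array. It also lost its call without the slide block, without the background cap and in the authors' deposited table. Heyl, Hes6, Snai1, Snai2 and Ccnd1 each lost the call without at least 1 of the 8 arrays, and the number of falling targets was 5 without Jagged1 MRK-003 replicate 2.

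**Figure D1:**
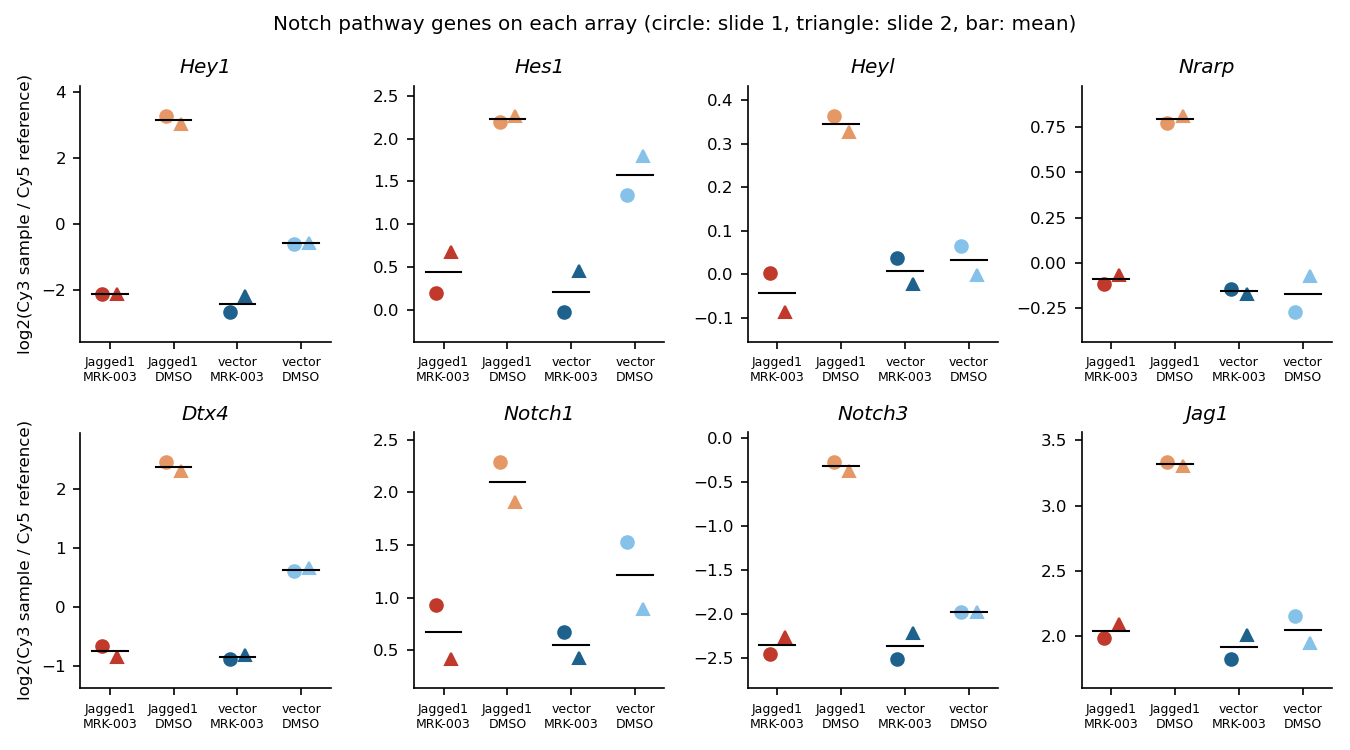
Log2 ratio of sample (Cy3) over reference RNA (Cy5) for 8 Notch pathway genes on each of the 8 arrays, with circles for slide 1, triangles for slide 2 and bars at the mean of 2 arrays. Hey1 was at -2.11 and -2.12 in Jagged1 MRK-003 and at 3.29 and 3.05 in Jagged1 DMSO co-cultures. In all 8 panels the Jagged1 MRK-003 arrays lie below the Jagged1 DMSO arrays, but only genes called as falling are shown. Of the tested genes, 13 of 23 canonical targets and 8 of 11 receptors and ligands did not pass. Each panel has its own vertical scale.

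Receptors and a ligand of the pathway fell together with the targets. Of 11 tested receptors and ligands, 3 fell and none rose. Notch3, a receptor, had log2 ratios of -2.45 and -2.26 in Jagged1 MRK-003, against -0.28 and -0.38 in Jagged1 DMSO co-cultures (fell by 2.03 ± 0.11, adjusted p = 0.000313; probe at chr17:30311822-30311881 on mm7). Notch1, the receptor most studied in blood and bone, had 0.93 and 0.42 in Jagged1 MRK-003, against 2.29 and 1.91 in Jagged1 DMSO co-cultures (fell by 1.42 ± 0.11, adjusted p = 0.000858), and its other probe gave -1.21. Both receptors were lower on both slides. Jag1, the ligand gene itself, had 1.99 and 2.09 in Jagged1 MRK-003, against 3.33 and 3.30 in Jagged1 DMSO co-cultures (fell by 1.28 ± 0.11, adjusted p = 0.00121). A dimmer Jag1 probe, above background on 3 of the 4 arrays, gave -0.65, and whether either probe also reads the tumour cells' own Jagged1 transcript was not tested. Notch2 (-0.06), Notch4 (-0.15), Dll1 (-0.07), Dll3 (0.01) and Dll4 (-0.10) did not pass.

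Among 26 tested genes of Notch transduction and feedback, 3 fell and 1 rose (5 and 0 without Jagged1 DMSO replicate 1). Dtx4, a ubiquitin ligase of the Deltex family, had log2 ratios of -0.65 and -0.84 in Jagged1 MRK-003, against 2.46 and 2.31 in Jagged1 DMSO co-cultures. It fell by 3.13 ± 0.10 (adjusted p = 8.7e-05), and its other probes gave -2.35 and -2.16. Nrarp is the second of these, and Dtx3, another Deltex gene, fell by 0.44 ± 0.09. Hdac1, a histone deacetylase of corepressor complexes, rose by 0.42 ± 0.09; Dtx3 and Hdac1 lost their calls when single arrays were left out. The partners in the nucleus did not pass: Rbpj differed by 0.35 and Maml1, Maml2 and Maml3 by -0.22, 0.06 and -0.01. Of the gamma-secretase genes, Psen2 (0.09), Ncstn (-0.08), Aph1a (-0.37), Aph1b (-0.05) and Psenen (-0.01) did not pass. Of the sheddases that make the cut before gamma-secretase, Bace1 rose by 0.49 ± 0.11 and Adam10 (0.38) and Adam17 (-0.35) did not pass; without Jagged1 MRK-003 replicate 1 or 2, or either Jagged1 DMSO replicate, Bace1 did not pass. Transcripts of 23 other gamma-secretase substrates showed 2 rises, Aplp2 (0.63, with other probes at -0.02 and 0.67) and Ephb2 (0.78, with 0.07 on the other probe and no call when probes were averaged), and 2 falls, Cdh2 (-0.80) and Nectin1 (-0.34), and none of the 4 passed without Jagged1 MRK-003 replicate 1 or without replicate 2, nor the falls without Jagged1 DMSO replicate 2; Nectin1 passed in none of the 8 fits that left out an array.

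The DNA word that RBPJ binds was looked up in RefSeq promoter windows (GRCm38.p6), which run from 250 bases before to 50 bases after a gene's start. Of the tested genes, 13184 had at least 1 window, and 7.1% of these genes had GTGGGAA, read on either strand, in any window. The share was 8.27% of the 568 genes with a window that fell and 5.11% of the 920 that rose. Among genes changed at least 2-fold it stood in 8.66% of 127 that fell and in 6.52% of 138 that rose, so most falling genes did not have it in this window. The 8 genes that passed, were picked by the rule for named genes and had a match are shown with 10 bases on each side. The match is in capitals, written 5′ to 3′ on the gene's own strand (TTCCCAC is the same word on the other strand). Named genes with a match that did not pass, such as Aph1a and Psen2, are not shown. The replication genes Mcm3 and Rfc3, outside that rule, rose and also had a match. Tnc, Bmf, Fbn1 and Ccl9 fell, and Ch25h, Sc5d, Hmgcs1 and Isg15 rose.
Tnc: aaaaaaaaaaGTGGGAAaggatgtctg
Bmf: ccgaggaacaGTGGGAAaccagtaatc
Fbn1: acttgaagagGTGGGAAaggagggggc
Ccl9: tgccctccacTTCCCACtgcacactgt
Ch25h: ggaaagggagGTGGGAAggagacggaa
Sc5d: cgggaagaaaGTGGGAAggaaagcaag
Hmgcs1: tcggactttgTTCCCACcccttacccc
Isg15: agttttggttTTCCCACtcatttaagg
These stretches lie at chr4:64047002-64047028 for Tnc, chr2:118544718-118544744 for Bmf, chr2:125506442-125506468 for Fbn1, chr11:83578625-83578651 for Ccl9 and chr19:34475213-34475239 for Ch25h. Those of Sc5d, Hmgcs1 and Isg15 lie at chr9:42264512-42264538, chr13:119690234-119690260 and chr4:156200907-156200933. Hey1, Hes1 and Dtx4 have no window in the table. Of the canonical targets, 14 had one and 3 of these a match (21.4%), Hes5, Hes7 and Lfng, none of which passed. The match is a description of letters and not a measured binding site.

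Outside the Notch pathway, the 15 largest falls among genes with a symbol and well above background on all 4 arrays held adhesion, secreted and signalling genes. Cdh15 encodes M-cadherin, an adhesion molecule of muscle precursors. Its log2 ratios were -0.76 and -0.64 in Jagged1 MRK-003, against 3.02 and 2.77 in Jagged1 DMSO co-cultures, and it fell by 3.60 ± 0.16 (12.1-fold, adjusted p = 0.000168). Mcam, the adhesion molecule CD146 of stromal and perivascular cells, had -2.08 and -1.81 in Jagged1 MRK-003, against 1.16 and 0.95 in Jagged1 DMSO co-cultures, and it fell by 3.00 ± 0.12 (adjusted p = 0.000142). Neither gene's groups came near each other, although a dimmer Mcam probe gave only -0.85. Mcam, unlike Cdh15, was not called without the background cap. Il6, a cytokine that promotes osteoclast formation, had 1.19 and 1.44 in Jagged1 MRK-003, against 4.01 and 3.62 in Jagged1 DMSO co-cultures, and it fell by 2.50 ± 0.29 (adjusted p = 0.00363). Igfbp5, a binding protein of insulin-like growth factors, had 1.34 and 1.42 in Jagged1 MRK-003, against 4.06 and 3.71 in Jagged1 DMSO co-cultures, and it fell by 2.51 ± 0.22 (adjusted p = 0.0014). Its second probe gave -0.49. Ccn2, the matricellular connective tissue growth factor, had -0.76 and -0.13 in Jagged1 MRK-003, against 2.24 and 1.85 in Jagged1 DMSO co-cultures (fell by 2.49 ± 0.39, adjusted p = 0.0106). Without the background cap Ccn2 was not called. The Ccn2 difference ran from -2.85 to -2.12 when single arrays were left out, and it was not called without Jagged1 MRK-003 replicate 1.

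The remaining 8 of these falls lay between 2.13 and 2.80 on the log2 scale. Bmf, a BH3-only promoter of cell death, had -1.02 and -1.81 in Jagged1 MRK-003, against 1.41 and 1.36 in Jagged1 DMSO co-cultures (fell by 2.80 ± 0.20), but its other probes gave -0.57 and -0.13. Hp, the haemoglobin-binding plasma protein haptoglobin, fell by 2.39 ± 0.26, with 2.18 and 0.75 in Jagged1 MRK-003 and 3.93 and 3.78 in Jagged1 DMSO co-cultures. The inhibitor arrays of Hp differed widely, yet both were below both solvent arrays. Vill, a villin-like actin-binding protein, fell by 2.37 ± 0.13 and on its other probe by 1.79. Gpr133, an adhesion G-protein-coupled receptor, fell by 2.34 ± 0.18, while its other probes gave -0.31 and -0.10; it was -1.53 in the scanner's processed ratio and -3.86 in Cy3 alone. Dbndd2, a dysbindin domain protein, fell by 2.29 ± 0.08, with a second probe at -2.49. Prag1, a pseudokinase that binds signalling adaptors, fell by 2.31 ± 0.08. Pla1a, a phospholipase that acts on phosphatidylserine, fell by 2.14 ± 0.14 and Pde9a, a phosphodiesterase that breaks down cyclic GMP, by 2.13 ± 0.15. Adjusted p-values of these 8 ran from 0.000128 for Prag1 to 0.00295 for Hp. Vill and Pde9a were not called without the background cap, nor Hp without the slide block.

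**Figure D2:**
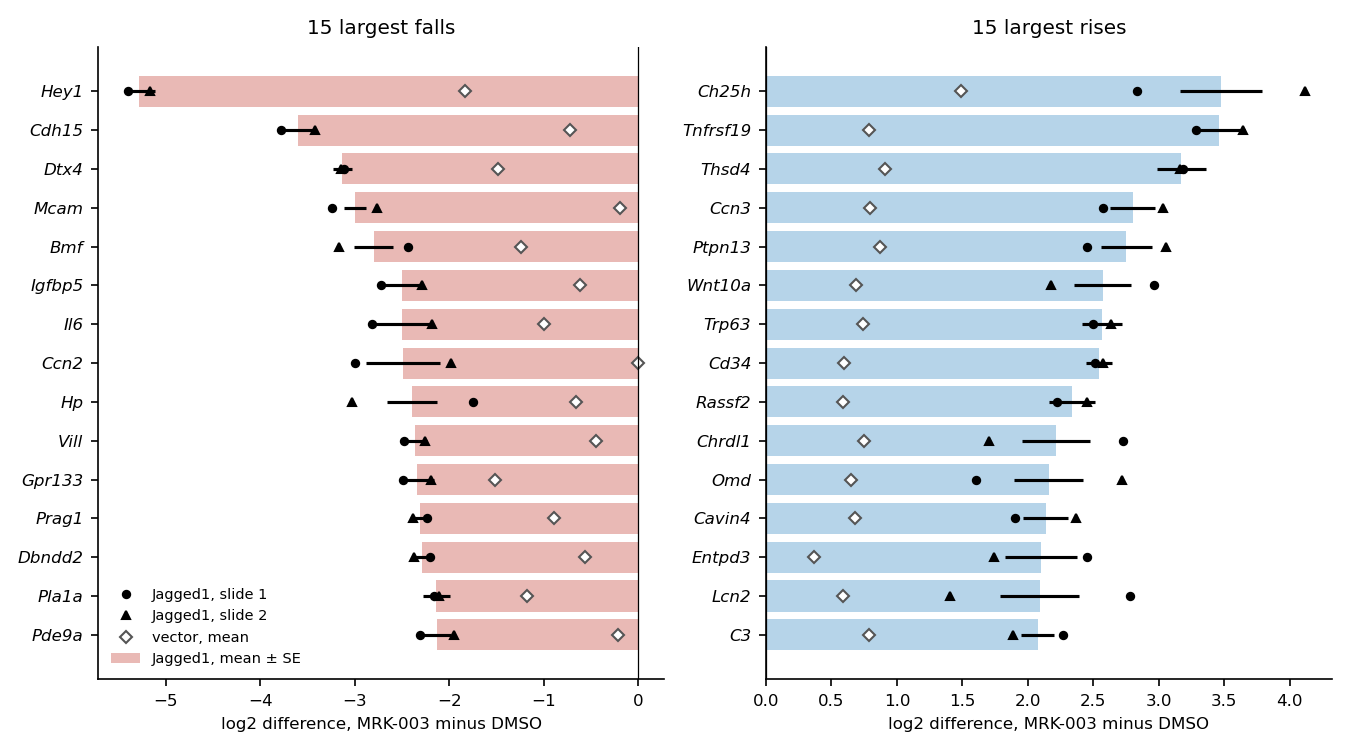
The 15 largest falls (left) and 15 largest rises (right) among called genes with a gene symbol (no clone, Riken, Gm or accession names) that were well above background on all 4 arrays. Bars show the mean log2 difference, Jagged1 MRK-003 minus Jagged1 DMSO, with its SE. Black symbols show the difference on each slide and open diamonds the mean difference in vector co-cultures. The bars run from -5.28 for Hey1 to 3.48 for Ch25h, and both slides have the sign of the bar for all 30 genes. The genes were picked by these same differences, so the shared sign is not separate support.

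By the same limits, the largest rise was that of Ch25h, the enzyme cholesterol 25-hydroxylase, which makes an oxysterol that lowers sterol synthesis. Its log2 ratios were 4.34 and 5.25 in Jagged1 MRK-003, against 1.503 and 1.14 in Jagged1 DMSO co-cultures, and it rose by 3.48 ± 0.31 (11.1-fold, adjusted p = 0.00145). Tnfrsf19, the TNF receptor family member TROY, had 1.58 and 2.51 in Jagged1 MRK-003, against -1.70 and -1.14 in Jagged1 DMSO co-cultures (rose by 3.46 ± 0.20, adjusted p = 0.000318). The inhibitor arrays of both genes stood well above the solvent arrays. Thsd4, a secreted protein of microfibrils, had 3.13 and 3.42 in Jagged1 MRK-003, against -0.06 and 0.26 in Jagged1 DMSO co-cultures (rose by 3.17 ± 0.19, adjusted p = 0.000318), and its other probe gave 2.12. Ccn3, a matricellular protein of the same family as Ccn2, had 1.22 and 2.36 in Jagged1 MRK-003, against -1.35 and -0.67 in Jagged1 DMSO co-cultures (rose by 2.80 ± 0.17, adjusted p = 0.00037). The 2 Ccn genes among the 30 largest changes thus had opposite signs.

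Further rises were those of Trp63, Cd34 and Ptpn13. Trp63, a p53-family transcription factor of epithelia, had 3.11 and 3.70 in Jagged1 MRK-003, against 0.61 and 1.07 in Jagged1 DMSO co-cultures (rose by 2.56 ± 0.15), but its other probes gave -0.10 and 0.46. Cd34, a sialomucin of stem and progenitor cells, had -1.21 and -0.49 in Jagged1 MRK-003, against -3.73 and -3.06 in Jagged1 DMSO co-cultures (rose by 2.54 ± 0.10). Ptpn13, a tyrosine phosphatase, rose by 2.75 ± 0.20 and on its other probe by 1.16. Rassf2, a Ras-association tumour suppressor, rose by 2.34 ± 0.18, with 0.39 on its other probe. Chrdl1, an antagonist of bone morphogenetic proteins, rose by 2.21 ± 0.26 (0.75 on its other probe). C3, the central complement component, rose by 2.07 ± 0.12 (0.23 on its other probe). Cavin4, a coat protein of caveolae known from muscle, rose by 2.13 ± 0.17, Entpd3, a cell-surface nucleotidase, by 2.10 ± 0.28, and Lcn2, an iron-carrier-binding lipocalin, by 2.09 ± 0.30. Chrdl1, Entpd3 and Lcn2 were not called without the background cap, nor Rassf2 and Lcn2 without the slide block. Entpd3 was not called without Jagged1 MRK-003 replicate 2, nor Lcn2 without Jagged1 MRK-003 replicate 1. When the probes of a gene were averaged, 7 of these 30 genes moved by more than 1.5 times: Bmf to -1.17, Gpr133 to -0.92, Mcam to -1.93, Igfbp5 to -1.497, Trp63 to 0.98, Rassf2 to 1.37 and C3 to 1.15, all still called.

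The probes of some falling genes were at background with MRK-003. Of the called genes, 10 were not well above background on either Jagged1 MRK-003 array and 0 on either Jagged1 DMSO array, and the 5 with the largest bounds are named. Slc17a1, a phosphate and urate transporter of the SLC17 family, was at least 5.79-fold lower with MRK-003 (adjusted p = 0.00316). Lama1, the laminin alpha 1 chain of basement membranes, was at least 4.91-fold lower on its brightest probe (adjusted p = 0.004), but a second probe, above background on 3 of the 4 arrays, gave only -0.70. Abcb1a, a drug efflux pump, was at least 2.96-fold lower (adjusted p = 0.0137). Slco2b1, an organic anion transporter, and Tmem125, a transmembrane protein, fell by 0.95 and 0.96 in log2 ratio, and no bound is given because theirs, from the Cy3 channel alone, exceeded the fold of the measured ratios. As such a bound can exceed the measured fold, those of Slc17a1, Lama1 and Abcb1a are rough. Abcb1a and Tmem125 were not called without Jagged1 MRK-003 replicate 1. All 5 were lower on both slides, but none of the 5 was called without the background cap. Slco2b1 was also not called without the slide block.

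Genes of the extracellular matrix that passed were nearly all lower with MRK-003. Of 30 tested collagens and matrix assembly genes, 12 fell, 1 rose and 17 did not pass, with a median of -0.54 (-0.34 on slide 1 and -0.72 on slide 2) against 0.01 over all genes. Col4a1 and Col4a2 encode the paired chains of basement membrane collagen. Col4a1 had 1.07 and 0.51 in Jagged1 MRK-003, against 2.96 and 2.62 in Jagged1 DMSO co-cultures (fell by 2.00 ± 0.11, adjusted p = 0.00031), with a second probe at -2.11. Col4a2 had 0.73 and 0.12 in Jagged1 MRK-003, against 2.05 and 2.08 in Jagged1 DMSO co-cultures (fell by 1.64 ± 0.15). Tnc, the matricellular protein tenascin C, fell by 1.61 ± 0.13, and its other probes gave -1.69 and -1.32. Loxl1, a lysyl oxidase that cross-links elastic fibres, fell by 1.57 ± 0.09 (adjusted p = 0.000318), Fbn1, the microfibril protein fibrillin 1, by 0.96 ± 0.14, and Col6a3, a chain of microfibrillar collagen, by 0.71 ± 0.09. The count of falling members was 6 without Jagged1 MRK-003 replicate 2, 7 without Jagged1 MRK-003 replicate 1 and 6 without Jagged1 DMSO replicate 2, and 3 rose without Jagged1 DMSO replicate 1; Col6a3 and Fbn1 lost their calls without Jagged1 MRK-003 replicate 1.

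Enzymes that cut the matrix were divided. Of 27 tested matrix proteases and inhibitors, 5 fell and 3 rose. Mmp13, the collagenase of osteoblasts and cartilage, had 3.40 and 3.13 in Jagged1 MRK-003, against 5.15 and 4.72 in Jagged1 DMSO co-cultures (fell by 1.67 ± 0.16, adjusted p = 0.00185). Mmp11, also called stromelysin 3, fell by 1.57 ± 0.13, Adamts12 by 1.06 ± 0.10 (-0.50 and -0.03 on its other probes) and Adamts2, which trims procollagen, by 0.91 ± 0.12. Timp3, a matrix-bound inhibitor of metalloproteinases, rose by 1.47 ± 0.19 (0.40 and 0.64 in Jagged1 MRK-003, against -0.79 and -1.11 in Jagged1 DMSO co-cultures). Mmp16, a membrane-anchored metalloproteinase, rose by 0.93 ± 0.08. Timp3 and Adamts2 lost their calls without Jagged1 MRK-003 replicate 2, the count of falls was 9 without Jagged1 DMSO replicate 1 and 3 without Jagged1 MRK-003 replicate 2, and the count of rises was 1 without the last. Among 19 contractile genes, 5 rose and 3 fell. Mylk, the kinase that activates smooth muscle myosin, fell by 1.00 ± 0.09, with other probes at -1.13 and -0.06, and Des, the filament protein desmin, by 0.58 ± 0.08, while Vcl, the adhesion protein vinculin, rose by 0.77 ± 0.10 and Lmod1, an actin nucleator of smooth muscle, by 0.96 ± 0.16. Without Jagged1 MRK-003 replicate 2 the count of rises was 0 and Des was not called; 2 list members rose without Jagged1 DMSO replicate 2, 2 without Jagged1 MRK-003 replicate 1 and 3 without Jagged1 DMSO replicate 1.

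Factors by which osteoblasts act on osteoclasts included several large falls. Of 18 tested factors, 7 fell, 4 rose and 7 did not pass. Tgfb1, a growth factor that bone matrix stores and that couples resorption to formation, had -0.30 and -0.44 in Jagged1 MRK-003, against 1.42 and 1.18 in Jagged1 DMSO co-cultures (fell by 1.67 ± 0.09, adjusted p = 0.00031). Ccl9, a chemokine that draws osteoclast precursors, had -1.25 and -1.46 in Jagged1 MRK-003, against -0.60 and -0.51 in Jagged1 DMSO co-cultures (fell by 0.80 ± 0.10, adjusted p = 0.00448). Il6 and Ccn2, given above, belong to the same list. In the other direction, Sema3a, a semaphorin known to hold back osteoclast formation in mice, rose by 0.95 ± 0.11 (-0.12 and 0.56 in Jagged1 MRK-003, against -0.89 and -0.57 in Jagged1 DMSO co-cultures; 0.50 and 0.85 on other probes), and Ccl2, a monocyte chemokine, rose by 0.79 ± 0.12. Of 24 cytokines and chemokines, 7 fell and 3 rose. Besides Il6 and Ccl9, the falls held Clcf1, a cytokine of the interleukin 6 family, at 1.03 ± 0.11 and Tslp, a cytokine of barrier tissues, at 0.80 ± 0.09, and Cx3cl1, a membrane-bound chemokine, rose by 0.78 ± 0.10. The osteoclast-factor falls numbered 3 and 4 without Jagged1 MRK-003 replicates 2 and 1, and the rises 1 without Jagged1 MRK-003 replicate 2 or Jagged1 DMSO replicate 2. The cytokine falls numbered 3 and 4 and the rises 1 and 1 without Jagged1 MRK-003 replicate 2 and without Jagged1 DMSO replicate 2. Ccl9 and Ccl2 lost their calls without Jagged1 MRK-003 replicate 2, Ccl2 also without Jagged1 DMSO replicate 2, and Cx3cl1 without Jagged1 MRK-003 replicate 1.

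Osteoblast differentiation genes that changed were mostly higher with MRK-003. Of 26 tested members, 6 rose, 1 fell and 19 did not pass, with a median of 0.04. Without the slide block 2 rose and 0 fell, and without the background cap 1 rose and 0 fell. Alpl, the alkaline phosphatase that frees phosphate for mineral, had -0.70 and -0.02 in Jagged1 MRK-003, against -2.10 and -1.39 in Jagged1 DMSO co-cultures (rose by 1.38 ± 0.11, adjusted p = 0.000851). Omd, the bone proteoglycan osteomodulin, had 1.97 and 2.89 in Jagged1 MRK-003, against 0.37 and 0.17 in Jagged1 DMSO co-cultures (rose by 2.16 ± 0.26, adjusted p = 0.00425). For both genes the inhibitor arrays lay above the solvent arrays. Bglap, the hormone-like matrix protein osteocalcin, rose by 0.61 ± 0.10. Enpp1, which makes the mineralization inhibitor pyrophosphate, fell by 1.08 ± 0.11, and Ank, which carries pyrophosphate or its precursor out of the cell, rose by 0.59 ± 0.12. Runx2, the master transcription factor of the lineage, rose by 0.83 ± 0.18 on its brightest probe, while its other probes gave -0.01, 0.41 and 0.77. Alpl, Bglap, Enpp1, Ank and Runx2 were not called without the slide block, nor without the background cap. Rises numbered 3 without Jagged1 MRK-003 replicate 2, 4 without Jagged1 MRK-003 replicate 1 and 3 without Jagged1 DMSO replicate 2, and 3 genes fell without Jagged1 DMSO replicate 1; Bglap, Ank and Runx2 were among those lost.

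Growth factor pathways changed in both directions. Of 25 TGF-beta and BMP response genes, 6 fell and 5 rose. Inhba, the activin A subunit, fell by 0.93 ± 0.13 and Id3, an inhibitor of helix-loop-helix factors, by 0.76 ± 0.09, whereas Tgfbr2, the type II TGF-beta receptor, rose by 0.90 ± 0.09 on its brightest probe (-0.09 and 0.13 on the others) and Bambi, a decoy receptor, by 0.67 ± 0.09. Of 26 Wnt genes, 6 rose and 3 fell. Wnt10a, a Wnt ligand, had 0.92 and 1.06 in Jagged1 MRK-003, against -2.04 and -1.12 in Jagged1 DMSO co-cultures (rose by 2.57 ± 0.22, adjusted p = 0.00119). Nkd2, a feedback inhibitor of Wnt signalling, had 2.32 and 2.46 in Jagged1 MRK-003, against 0.27 and 0.40 in Jagged1 DMSO co-cultures (rose by 2.05 ± 0.08, adjusted p = 0.000148; 0.94 on a second probe). Rnf43, which removes Wnt receptors, rose by 1.48 ± 0.14. Axin2, a feedback target, rose by 2.26 ± 0.27, but its probe was well above background on only some of the 4 arrays. Ccn4, a matricellular protein, fell by 1.07 ± 0.18. Of 13 genes of the IGF axis, 5 rose and 4 fell. Irs1, the docking protein of insulin and IGF receptors, rose by 1.72 ± 0.21, Igfbp2 by 1.52 ± 0.11 and the ligand Igf1 by 1.09 ± 0.16, while Igf2r, which clears IGF2, fell by 1.22 ± 0.11 and Igfbp7 by 1.13 ± 0.10. Without Jagged1 MRK-003 replicate 2, the numbers that rose and fell were 1 and 3 in the TGF-beta list, 4 and 0 in the Wnt list and 2 and 3 in the IGF list; without Jagged1 MRK-003 replicate 1 they were 3 and 2, 6 and 0, and 2 and 3. Igf1 and Ccn4 were lost without either, Bambi and Id3 without replicate 2 and Inhba without replicate 1. Without Jagged1 DMSO replicate 2, 1 Wnt gene fell, and 3 IGF genes rose without either Jagged1 DMSO or either vector MRK-003 replicate.

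**Figure D3:**
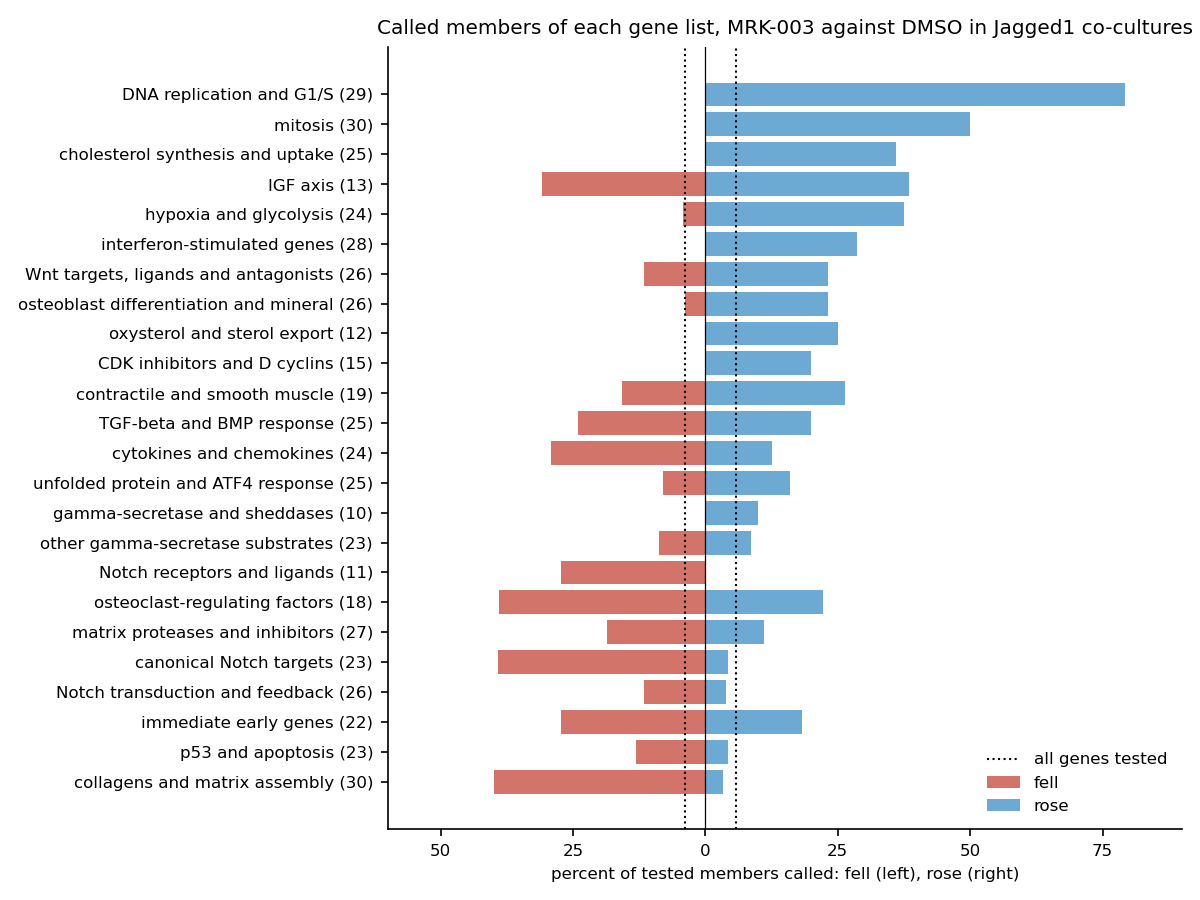
Share of the tested members of each gene list that fell (left of 0) or rose (right of 0) with MRK-003 in Jagged1 co-cultures, ordered by the list's median difference, with the number tested in brackets. Dotted lines mark the shares over all genes, 3.83% fell and 5.75% rose. The DNA replication list has 23 of 29 members higher and the collagen list 12 of 30 lower. Lists and members were chosen with earlier results of these data known, so the shares are descriptions and not tests of enrichment.

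Genes of DNA replication rose together. All 29 tested members of the list had a positive difference, 23 passed and none fell, with a median of 0.62 (0.70 on slide 1 and 0.64 on slide 2) against 0.01 over all genes. Pcna, the sliding clamp of DNA polymerase, had -0.29 and -0.06 in Jagged1 MRK-003, against -1.12 and -1.03 in Jagged1 DMSO co-cultures (rose by 0.90 ± 0.09, adjusted p = 0.0023). Mcm6, a subunit of the replicative helicase, had 0.08 and 0.24 in Jagged1 MRK-003, against -0.82 and -0.53 in Jagged1 DMSO co-cultures (rose by 0.84 ± 0.08, adjusted p = 0.00207). Both were higher in both inhibitor arrays than in either solvent array, by less than 2-fold. Mcm4 and Mcm10, which serve the same helicase, rose by 0.79 ± 0.09 and 0.77 ± 0.08, Prim1, the primase subunit, by 0.88 ± 0.09 and Gins1, of the GINS complex, by 0.87 ± 0.09. Rises numbered 8 without Jagged1 MRK-003 replicate 2 and 10 without Jagged1 MRK-003 replicate 1, 10 without the slide block and 12 without the background cap, and these 6 genes kept their calls without any single array. The mitosis list, of 30 tested genes, had 15 rises and 0 falls with a median of 0.39, among them Aurkb and Mad2l1, of chromosome segregation and its checkpoint, at 0.79 ± 0.12 and 0.77 ± 0.10, Nusap1 at 0.66 ± 0.09, Ccnb1, encoding cyclin B1, at 0.60 ± 0.09, Birc5 at 0.57 ± 0.09 and Cdk1 at 0.49 ± 0.08. Second probes gave only 0.10 for Nusap1 and 0.13 for Cdk1, and Cdk1 was not called when its probes were averaged. This list was less steady: 4 rises were called without Jagged1 DMSO replicate 2 and 4 without Jagged1 MRK-003 replicate 1, 10 without Jagged1 DMSO replicate 1 or either vector MRK-003 replicate, and 0 without Jagged1 MRK-003 replicate 2 or without the slide block. Of 15 CDK inhibitors and D cyclins 3 rose, Ccnd1, Cdkn2c (0.76 ± 0.08) and Rbl1, a pocket protein of the cell cycle (0.71 ± 0.14), and 1 did so without Jagged1 MRK-003 replicate 2.

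The promoter windows of these replication genes were searched for the DNA words of E2F, the family of transcription factors that drives S-phase genes. TTTGGCGC or TTTCGCGC, on either strand, stood in 10 of the 25 replication genes with a window (40%), against 1.46% of 13184 tested genes and 0.929% of the 27025 genes of the table. The share was 3.04% over all genes that rose and 0.704% over all that fell. E2F drives S-phase genes, so a high share goes with the choice of this list and does not test an effect of MRK-003. A match is a description of letters, and the part of E2F in these rises was not tested. Of the 10 replication genes with a match, 8 rose, beside 23 of all 29 tested members. A stretch of each of 5 of these 8 is shown with its match in capitals.
Mcm6: attggacgggTTTGGCGCgaagtagctc
Mcm5: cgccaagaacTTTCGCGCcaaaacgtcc
Pola1: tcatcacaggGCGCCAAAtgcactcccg
Rfc3: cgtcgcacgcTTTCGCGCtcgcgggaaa
Orc1: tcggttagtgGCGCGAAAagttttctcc
They lie on GRCm38.p6 at chr1:128359735-128359762 (Mcm6), chr8:75109346-75109373 (Mcm5), chrX:93632276-93632303 (Pola1), chr5:151651201-151651228 (Rfc3) and chr4:108579417-108579444 (Orc1). Pola1 and Orc1 carry the reverse complement of the words above. Both words overlap each other on opposite strands in Mcm5 and at a second place in Mcm6. Pola1, the catalytic subunit of DNA polymerase alpha, rose by 0.79, Mcm5 by 0.58, Rfc3 by 0.57 and Orc1 by 0.50 on the log2 scale. These 4 genes were chosen for their match and not by the rule for named genes.

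**Figure D4:**
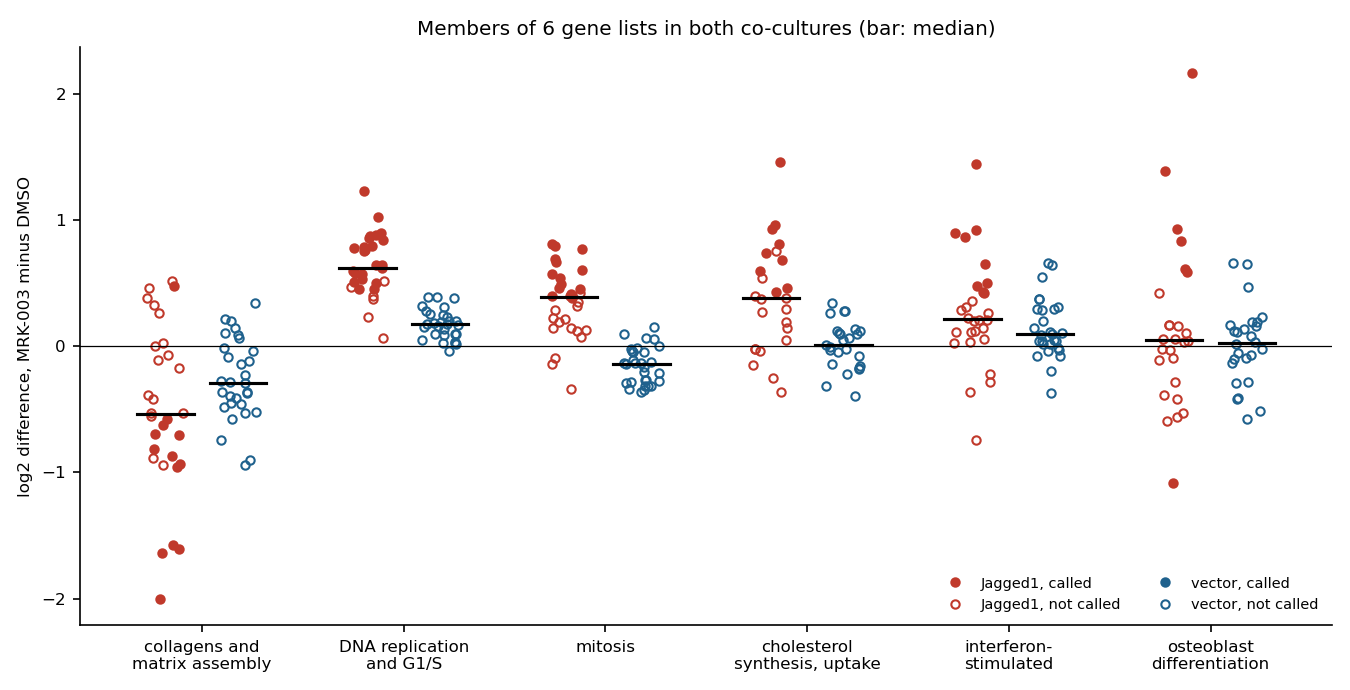
Log2 difference, MRK-003 minus DMSO, of each tested member of 6 gene lists in Jagged1 (red) and vector (blue) co-cultures; filled points passed the test, open points did not, and bars are medians. The median of the replication list was 0.62 in Jagged1 and 0.18 in vector co-cultures, and that of the collagen list -0.54 and -0.29.

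Some sterol and metabolic genes rose. Of 25 genes of cholesterol synthesis and uptake, 9 rose and 0 fell, with a median of 0.38. Ebp, a sterol isomerase, had 0.78 and 1.03 in Jagged1 MRK-003, against -0.63 and -0.47 in Jagged1 DMSO co-cultures (rose by 1.46 ± 0.08, adjusted p = 0.00031). Sc5d, a later enzyme of the same pathway, rose by 0.96 ± 0.11, Idi1 by 0.93 ± 0.12 and Msmo1 by 0.81 ± 0.11. Second probes gave 0.45 for Sc5d and 0.53 for Idi1. Rises numbered 2 without Jagged1 MRK-003 replicate 2, 4 without Jagged1 MRK-003 replicate 1 and 4 without Jagged1 DMSO replicate 2, and Ebp and Sc5d kept their calls throughout these. Of 12 oxysterol and sterol export genes 3 rose, Ch25h, Osbpl3 (0.50, and 0.22 on another probe) and Mylip (0.54, and 0.15 on another probe, not called when averaged), and 1 without Jagged1 MRK-003 replicate 1 or 2. Of 24 genes of hypoxia and glycolysis, 9 rose and 1 fell. Slc16a1, the lactate and pyruvate transporter MCT1, had -0.29 and -0.29 in Jagged1 MRK-003, against -2.22 and -2.26 in Jagged1 DMSO co-cultures (rose by 1.95 ± 0.08, adjusted p = 0.000149), and its other probes gave 0.29 and 1.88. Slc2a1, the glucose transporter GLUT1, rose by 1.03 ± 0.13 and Bnip3, of mitochondrial turnover, by 1.24 ± 0.13. Vegfa, the angiogenic factor, was the member that fell, by 1.39 ± 0.11, and its other probes gave -1.48 and -1.33. Rises in this list numbered 2 without Jagged1 MRK-003 replicate 2 and 5 without Jagged1 DMSO replicate 2; Slc16a1, Bnip3 and Vegfa kept their calls without any single array, and Slc2a1 lost it without Jagged1 MRK-003 replicate 2.

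Of 28 interferon-stimulated genes 8 rose and 0 fell, with a median of 0.21. Ifit1, Ifit3 and Ifit2, which encode RNA-binding antiviral proteins, rose by 1.44 ± 0.18, 0.92 ± 0.09 and 0.90 ± 0.11, and kept their calls without any single array. Second probes gave 0.35 for Ifit3 and 0.47 for Ifit2. Bst2, the virion-tethering protein tetherin, rose by 0.65 ± 0.10 and Isg15, a ubiquitin-like protein, by 0.50 ± 0.08, both lost without Jagged1 MRK-003 replicate 2 or Jagged1 DMSO replicate 2. The count was 3 and 4 without Jagged1 MRK-003 replicates 2 and 1, 4 without Jagged1 DMSO replicate 2 and 0 without the background cap. Of 22 immediate early genes, 6 fell and 4 rose. The falls held Ier2 (1.24 ± 0.16), Btg2 (1.08 ± 0.18), Junb (1.00 ± 0.14) and Zfp36, which destabilises cytokine messages (0.95 ± 0.12), while the AP-1 genes Fosl2 and Fosl1 rose by 1.46 ± 0.19 and 0.83 ± 0.14. A second Fosl2 probe gave 0.13, and a second Zfp36 probe -0.63. Without Jagged1 MRK-003 replicate 1, 2 fell and 1 rose, without Jagged1 MRK-003 replicate 2, 0 rose, and without Jagged1 DMSO replicate 2, 3 fell and 2 rose; Zfp36 and Ier2 kept their calls in all 3. Of 25 genes of the unfolded protein and ATF4 response, 4 rose and 2 fell, among them the serine synthesis genes Phgdh (0.92 ± 0.14, with 0.34 and 0.72 on other probes) and Psat1 (0.69 ± 0.10) and, in the other direction, Ddit4 (fell by 1.17 ± 0.20); without Jagged1 MRK-003 replicate 2, 1 rose and 0 fell, without Jagged1 MRK-003 replicate 1, 1 rose and 1 fell, without either vector MRK-003 replicate, 2 rose, and without either Jagged1 DMSO replicate, 1 fell. Of 23 p53 and apoptosis genes, Trp63 rose and 3 fell, Bmf, Trp53inp1 (by 1.22 ± 0.20) and Bcl2l11, the BH3-only gene of Bim (by 0.56 ± 0.11, with other probes at -0.23 and 0.07 and no call when averaged); the falls numbered 1 without Jagged1 MRK-003 replicate 2 or Jagged1 DMSO replicate 2, and 5 without Jagged1 DMSO replicate 1.

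Of 101 tested markers for 8 cell types other than osteoblasts, 9 passed (8.91%), near the 9.58% of all genes. None of 17 tested epithelial, 15 macrophage, 11 adipocyte or 10 endothelial markers passed. The summed Cy3 signal of the epithelial markers was 7080 and 6866 in Jagged1 MRK-003 against 8039 and 7562 in Jagged1 DMSO co-cultures. Esrp1 and Ocln were not well above background on any of the 4 arrays, and Cdh1 on neither Jagged1 DMSO array. Macrophage markers summed to 8661 and 8930 in Jagged1 MRK-003 against 8042 and 8488 in Jagged1 DMSO co-cultures. Adipocyte markers summed to 3245 and 3404 in Jagged1 MRK-003 against 3143 and 3207 in Jagged1 DMSO co-cultures, and endothelial markers to 2235 and 2214 against 2409 and 2304. Of 10 tested osteoclast markers 1 fell, Itgb3, the integrin beta 3 subunit, with 0.45 and 0.27 in Jagged1 MRK-003 against 2.16 and 1.99 in Jagged1 DMSO co-cultures (fell by 1.71 ± 0.09, adjusted p = 0.000283; -0.42 on a dimmer probe). The list summed to 9997 and 9909 in Jagged1 MRK-003 against 21801 and 21147 in Jagged1 DMSO co-cultures. However, 9 of the 10 tested markers did not pass, 5 had a positive difference and the median was -0.02. A sum can follow 1 bright gene, and what Itgb3 gave to it was not tested. The osteoclast gene Atp6v0d2 was not well above background on any of these arrays. Of 17 tested skeletal muscle markers 3 fell, Cdh15, Des and Tnnt2, a troponin (by 0.49 ± 0.11), 1 without Jagged1 MRK-003 replicate 2. Of 10 chondrocyte markers 4 passed, in both directions: the transcription factors Sox9 (1.15 ± 0.21) and Sox6 (1.15 ± 0.18) rose, and the cartilage collagens Col2a1 (0.85 ± 0.16) and Col11a2 (0.64 ± 0.09) fell, and none of the 4 passed without Jagged1 MRK-003 replicate 2. Their other probes gave 0.21 and 1.42 for Sox9, 0.22 and 0.60 for Sox6, -0.70 and 0.15 for Col2a1 and -0.10 for Col11a2. Of 11 Schwann and neural crest markers S100b, a calcium-binding protein also made by skeletal cells, rose by 1.93 ± 0.21 (4.19 and 4.10 in Jagged1 MRK-003, against 1.95 and 2.48 in Jagged1 DMSO co-cultures). Of the 15 osteoblast markers 4 rose, Twist1 (1.20 ± 0.08), Alpl, Bglap and Runx2, and 2 without Jagged1 MRK-003 replicate 2 or Jagged1 DMSO replicate 2; 3 fell without Jagged1 DMSO replicate 1. The part of other cells in the gene changes above was not tested.

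With vector tumour cells the same inhibitor changed far fewer genes past the threshold. In the same fit, 7 of 23441 genes passed (0.0299%; 0.00427% rose and 0.0256% fell) and 2416 had an unadjusted p under 0.05, against 5893 in Jagged1 co-cultures. These 7 were Hey1, Dtx4, Hes1, Prag1, Aldh3a1, an aldehyde dehydrogenase, and C1qtnf5, a C1q-related secreted protein, which fell, and Ifi27l2a, an interferon-induced gene, which rose, and all 7 had also passed in Jagged1 co-cultures. No more than 4 genes passed when any single array was left out. Hey1 had -2.68 and -2.17 in vector MRK-003, against -0.61 and -0.56 in vector DMSO co-cultures (fell by 1.84 ± 0.16, adjusted p = 0.0452). Of the 2246 genes called in Jagged1 co-cultures, 86.7% had a vector difference of the same sign, and their median absolute difference was 0.627 in Jagged1 and 0.215 in vector co-cultures; since these genes were picked for their Jagged1 difference, that gap is a description.

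The difference of the inhibitor's effects, Jagged1 minus vector, was tested in its own right. It passed for 89 genes (0.38%), 46 of them lower (0.196%) and 43 higher (0.183%), while 2916 had an unadjusted p under 0.05. All 89 had also passed in Jagged1 co-cultures and had their larger effect there. Hey1 (-3.45 ± 0.23, adjusted p = 0.0093), Cdh15 (-2.88 ± 0.22, adjusted p = 0.0139) and Mcam (-2.80 ± 0.17, adjusted p = 0.0093) had the largest negative differences among genes with a symbol that were well above background on all 8 arrays. Mcam stayed at -1.81 and -1.83 in vector MRK-003 against -1.62 and -1.63 in vector DMSO co-cultures, so its fall was seen with Jagged1 tumour cells. Fap, a stromal serine protease named after its values were seen, had -2.45 (adjusted p = 0.0239) but was well above background on only 1 of the 2 Jagged1 MRK-003 arrays. Under the same limits Vill, Pde9a, Dbndd2 and Dtx4 followed at -1.92, -1.92, -1.72 and -1.65, and Cbfa2t3, a corepressor that had fallen by 1.75 ± 0.14 with Jagged1, at -1.78. Tnfrsf19 (2.67 ± 0.28, adjusted p = 0.0244), Thsd4 (2.26 ± 0.26) and Ccn3 (2.00 ± 0.24) had the largest positive ones within these limits. Cd34, Nkd2 and Trp63 followed at 1.95, 1.89 and 1.83, with Tspan13, a tetraspanin, at 1.63 and Ogn, the bone proteoglycan osteoglycin, at 1.56. The count was 4 without the slide block and 0 without the background cap, and it was 0 without Jagged1 MRK-003 replicate 1, 1 without Jagged1 MRK-003 replicate 2, 1 without either vector MRK-003 replicate, 9 and 7 without vector DMSO replicates 1 and 2, and 51 and 49 without Jagged1 DMSO replicates 1 and 2.

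**Figure D5:**
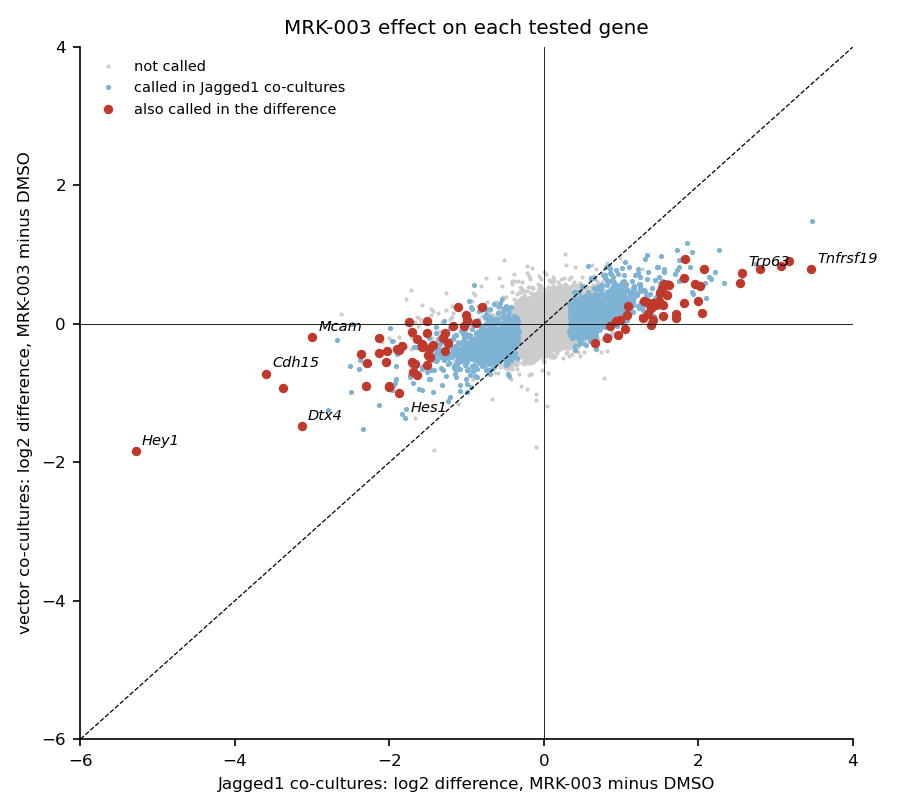
Log2 difference, MRK-003 minus DMSO, of each tested gene in Jagged1 (horizontal) and vector (vertical) co-cultures, with genes called in Jagged1 co-cultures in blue and the 89 genes called in the difference of the effects in red; the dashed line marks equal effects. Hey1 lies at -5.28 and -1.84 and Hes1 at -1.80 and -1.36.

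For several genes the difference between the 2 kinds of co-culture did not pass the test. Hes1 had -0.03 and 0.46 in vector MRK-003 against 1.34 and 1.80 in vector DMSO co-cultures, and its difference of effects was -0.44 ± 0.17 (95% interval -0.85 to -0.04, adjusted p = 0.358). Zfp36, Ier2, Junb and Btg2 had vector differences of -0.91, -1.12, -0.87 and -0.97, close to those with Jagged1, although none passed there. Their differences of effects were -0.04, -0.12, -0.13 and -0.12, with 95% intervals of -0.42 to 0.35 for Zfp36, -0.65 to 0.41 for Ier2, -0.60 to 0.33 for Junb and -0.71 to 0.48 for Btg2. Isg15 and Bst2 likewise had vector differences of 0.55 and 0.66 and differences of effects of -0.05 (95% interval -0.33 to 0.23) and -0.01 (-0.34 to 0.33). Bglap had 0.66 with vector tumour cells, and a difference of effects of -0.05 (-0.38 to 0.28). Apart from that of Hes1, which lies below 0, these intervals leave room for a moderate difference either way.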

How the data were processed

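Spots were read from the scanner files; per the file headers, the authors used Agilent Feature Extraction 9.5.3.1 on a mouse array with probes placed on build mm7, and the labels' protocols give 175 ng of RNA per array, samples in Cy3, the common reference in Cy5 and no dye swap. The deposited intensity values used were each spot's mean signal and median local background. The deposited log10 ratio (Cy5 over Cy3) and processed intensity were used in an alternative, as was the authors' deposited log2 table, which equals the processed log2 ratio of sample over reference plus 1 constant per array for 100% of spots within 0.02. Its column medians, replicate 1 then 2, were 0.1635 and 0.1544 (Jagged1 MRK-003), 0.1454 and 0.1726 (Jagged1 DMSO), 0.1278 and 0.1554 (vector MRK-003), 0.1135 and 0.2068 (vector DMSO). The deposited outlier, control and background flags (0 or 1, other values) chose the spots.

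Of 45018 spots per array, 1639 were controls and had no weight in loess. Local backgrounds over 2 times the array median were set to the median, followed by normexp with an offset of 50 and loess. Spots of a probe were averaged; of 41174 probes, 303 were left out for outlier marks and 7811 as dim (Cy3 not well above background on both arrays of any group), which left 33060. Names came from RefSeq (GRCm38.p6) for 22951 probes, and 18223 kept the file's name. Each of 23441 genes was read on its brightest Cy3 probe.

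limma 3.58.1 in R 4.3.3 fitted 4 group means and slide to all 8 arrays, so the groups share 1 estimate of the spread; adjusted p is Benjamini-Hochberg over all genes, two-sided, and 2 arrays per group limit the precision. The replicate number is the slide, read from the file headers; deviations of same-slide arrays from their group means correlated at 0.371 to 0.855 between groups. The scripts were tested on simulated data. Lists were described by counts and medians. Members, lists and rules were chosen with earlier results of these data known.

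Genes named were the 15 largest falls and 15 largest rises that passed, had a gene symbol and were well above background on all 4 arrays, the 5 largest bounds, the 8 largest per direction in the difference (above background on all 8 arrays), and, per list, up to 6 called members by p (Notch lists in full); a few genes the rule selects are not reported here.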

Additional observations from a re-analysis of the deposited data

Results flagged for a closer look

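The effect of MRK-003 with Jagged1 tumour cells differed from that with vector tumour cells, by limma's test of the difference itself, for 32 of the genes named. All values are log2 differences of the effects, Jagged1 minus vector. Over all genes this test passed for 89 (0.38%), but for only 4 without the slide block, 0 without the background cap and 2 in the authors' deposited table. Of the pathway genes, Hey1 was at -3.45, Dtx4 at -1.65, Notch3 at -1.64, Jag1 at -1.14 and Nrarp, which was below background with MRK-003, at -0.90. Adhesion and cytoskeletal genes were Cdh15 at -2.88, Mcam at -2.80, Vill at -1.92, Itgb3 at -1.17 and Mylk at -1.05. Secreted and matrix genes were Loxl1 at -1.29, Col4a1 at -1.10, Tgfb1 at -1.08 and Ccl9 at -1.05. Pde9a was at -1.92, Cbfa2t3 at -1.78, Dbndd2 at -1.72 and Prag1 at -1.42.

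Genes with the opposite sign were Tnfrsf19 at 2.67, Thsd4 at 2.26, Ccn3 at 2.00, Cd34 at 1.95, Nkd2 at 1.89, Trp63 at 1.83, Tspan13 at 1.63, Ogn at 1.56, Slc16a1 at 1.37, C3 at 1.29, Ebp at 1.18, Alpl at 1.15, Nusap1 at 0.94 and Mmp16 at 0.88. In Nusap1 the vector difference was -0.28, against 0.66 with Jagged1. For Mcam, Itgb3, Jag1, Mylk, Nusap1, Nkd2, Slc16a1, Trp63 and C3, at least 1 other probe gave an MRK-003 difference in Jagged1 co-cultures that was over 1.5 times smaller.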

How the results depend on the processing

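Directions were compared only for values that passed in at least 1 of the settings. In Jagged1 co-cultures 2246 genes passed, in vector co-cultures 7, and in the difference of the effects 89; the counts below are in that order. Without the replicate block they were 484, 0 and 4; no cap on local background gave 510, 0 and 0, and neither cap nor block, a setting chosen after seeing the data, 72, 0 and 0. The scanner's processed ratio gave 978, 0 and 2, the values in the authors' deposited table gave 1015, 0 and 2, and Cy3 alone 0 in vector co-cultures and 44 in the difference. Median centring gave 17 in vector co-cultures, probes above background on all 8 arrays 1, and the 4 arrays of a comparison alone 465 in Jagged1 and 0 in vector co-cultures. Leaving out each array gave 504 to 2789, 0 to 4 and 0 to 51. Beside each vector count of 0, between 849 and 2772 genes had an unadjusted p under 0.05. Of the Jagged1 calls 60% were rises; this was 47.9% without the block, 38.9% with neither cap nor block and 48.6% without Jagged1 MRK-003 replicate 2. Oas2 reversed without the cap, to -0.057 with or without the block. Of the 30 largest changes, 27 kept their call with every array left out in turn, 27 without the block, 23 without the cap and 11 with neither. All 30 kept it under the processed ratio, the deposited table, median centring, Cy3 alone and averaged probes, and none reversed. Depth limits slide 2, where fewer spots were well above background.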
